A study of Homo sapiens with 42 samples.

Results

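A divergent gene pair is a pair of protein-coding genes that lie head to head on opposite strands, so that a single stretch of DNA serves as the promoter of both. The pairs were found in the GENCODE annotation of hg38, release 44, as protein-coding genes that point away from each other with canonical starts at most 1000 bp apart. The rule found 984 gene pairs among the 19970 protein-coding genes of chromosomes 1 to 22 and X, and 12 of them had the same starts as another pair. This left 972 pair promoters with 1895 genes, out of 18975 protein-coding promoters in all, and the other 18003 promoters served for comparison. Of the pair windows 117 overlapped another pair window, and 60 genes were in more than 1 pair promoter. Such pairs can share a peak, and each was counted, also on the gene lists below. The starts of a pair were 11 to 1000 bp apart, with a median of 233 bp. A promoter had a peak in a library when a peak summit fell between the starts or within 500 bp outside them, or within 500 bp of the start for the other promoters.

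The data were ATAC-seq peak lists, and in this assay a transposase cuts and tags DNA that is not packed in nucleosomes. The 42 libraries came from MCF10A, an established and non-transformed line of human mammary epithelial cells, grown on collagen-1 in medium with horse serum, hydrocortisone and cholera toxin but without EGF or insulin for 18 h before treatment. CTRL cells were taken at 0 h (4 libraries). PBS, HGF (40 ng/ml), OSM (10 ng/ml), IFNG (20 ng/ml) with EGF (10 ng/ml) and TGFB (10 ng/ml) with EGF (10 ng/ml) had 3 libraries each at 24 h and at 48 h, and EGF alone (10 ng/ml) had 4 at each time. The study's methods describe the replicates as biological, and the labels give them letters.

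At a divergent promoter, transcription starts on both strands from the edges of a shared nucleosome-free region, and such promoters usually lie in CpG islands, which are GC-rich stretches that keep an unmethylated, open state in most cell types. Many carry housekeeping genes, such as those of DNA repair, mitochondria and translation. Sites for NRF1 and for ETS family factors are known to be frequent at promoters of this kind, while TATA boxes are rare. IFNG induces the antigen-processing genes TAP1 and PSMB9, which themselves form a divergent pair.

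The DNA between the starts is shown for the pairs that the results turn on: the called and the textbook pairs with starts at most 300 bp apart. Each is the plus strand of hg38, from the base after the start of the minus-strand gene to the base before the start of the plus-strand gene, so that the gene named first reads to the left and the gene named last to the right. Capitals mark a match on either strand to any of the 9 motifs searched.
COL4A1-COL4A2, chr13:110307158-110307283: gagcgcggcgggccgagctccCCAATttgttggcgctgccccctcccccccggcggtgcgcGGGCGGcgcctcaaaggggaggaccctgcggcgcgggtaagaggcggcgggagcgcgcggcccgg
PARP9-DTX3L, chr3:122564301-122564337: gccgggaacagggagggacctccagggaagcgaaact
SURF1-SURF2, chr9:133356488-133356549: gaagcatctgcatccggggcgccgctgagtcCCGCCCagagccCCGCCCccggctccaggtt
NUP37-PARPBP, chr12:102120115-102120182: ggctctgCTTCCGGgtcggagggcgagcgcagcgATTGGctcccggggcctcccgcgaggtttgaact
COQ8B-ITPKC, chr19:40716887-40717111: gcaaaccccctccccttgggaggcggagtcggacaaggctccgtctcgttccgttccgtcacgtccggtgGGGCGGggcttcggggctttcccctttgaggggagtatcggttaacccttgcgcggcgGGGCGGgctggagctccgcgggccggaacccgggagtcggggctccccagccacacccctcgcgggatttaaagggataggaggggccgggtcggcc
AIDA-BROX, chr1:222712492-222712563: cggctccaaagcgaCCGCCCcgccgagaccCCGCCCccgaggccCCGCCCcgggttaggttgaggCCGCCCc
SLC25A11-RNF167, chr17:4940047-4940267: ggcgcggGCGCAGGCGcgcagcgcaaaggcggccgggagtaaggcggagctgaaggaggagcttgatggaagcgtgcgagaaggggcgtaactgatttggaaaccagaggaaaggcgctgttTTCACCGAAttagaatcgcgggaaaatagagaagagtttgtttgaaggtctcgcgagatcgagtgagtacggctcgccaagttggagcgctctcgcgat
FAM219A-DNAI1, chr9:34458571-34458804: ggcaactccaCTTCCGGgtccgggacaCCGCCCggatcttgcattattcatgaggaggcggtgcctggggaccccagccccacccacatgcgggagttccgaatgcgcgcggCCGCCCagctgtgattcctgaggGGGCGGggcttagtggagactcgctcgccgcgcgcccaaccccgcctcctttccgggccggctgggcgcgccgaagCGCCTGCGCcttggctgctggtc
ENSG00000241489-EOLA1, chrX:149540927-149541011: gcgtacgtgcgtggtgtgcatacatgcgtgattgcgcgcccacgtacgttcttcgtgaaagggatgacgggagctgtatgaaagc
The 126 bp between COL4A1 and COL4A2 were 80.2% GC and held a CCAAT box and an SP1 motif. The 72 bp between AIDA and BROX held 4 SP1 motifs, and the 62 bp between SURF1 and SURF2 held 2. An NRF1 motif lay in the SLC25A11-RNF167 and FAM219A-DNAI1 stretches, and an ETS motif in those of NUP37-PARPBP and FAM219A-DNAI1. No match was found between PARP9 and DTX3L or between ENSG00000241489 and EOLA1.

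Over all pairs, the same motifs were counted in 300 bp around the midpoint of the starts, and for the other promoters from 250 bp before to 50 bp after the start. The ETS motif (CCGGAAG) was in 30.9% of pair promoters, in 12.2% of the others and in 13.2% of all promoters. The NRF1 motif (GCGCANGCG) was in 17.8% of pairs and 10.1% of others (10.5% of all), and the YY1 motif (AANATGGCG) in 8.23% and 4.40% (4.60% of all). The SP1 motif (GGGCGG) was in 72.3% of pairs and 60.03% of others (60.7% of all), and the CCAAT box (CCAAT) in 41.9% and 35.4% (35.8% of all). The TATA box (TATAAA) was in 4.42% of pairs and 10.4% of others (10.1% of all), and the AP-1 motif (TGANTCA) in 2.06% and 5.77% (5.58% of all). The GAS motif (TTCNNNGAA) was in 6.28% of pairs and 6.57% of others (6.56% of all), and the ISRE core (TTCNNTTTC) in 7.20% and 7.02% (7.03% of all). Among CpG-rich promoters, which have at least 55% GC and at least 0.6 of the expected CpG over 1000 bp, ETS was in 30.4% of pairs and 16.3% of others, NRF1 in 18.8% and 15.4%, CCAAT in 41.8% and 33.5%, YY1 in 8.10% and 6.06%, GAS in 6.31% and 4.28%, and ISRE in 6.19% and 4.36%. SP1 was in 76.4% of these pairs and 83.4% of others, TATA in 3.57% and 4.31%, and AP-1 in 2.02% and 2.96%. Of the pairs, 86.4% were CpG-rich (840 of 972), against 57.8% of the other promoters (10410 of 18003). These shares describe base composition and letters, and no test was made on them.

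Depth was unknown, since the files hold peaks and no reads. The libraries listed 2689076 summits in all, from 4217 to 113805 per library, and the study's own annotation fails 12 of the 42 on the share of reads in peaks. TGFB with EGF was the most affected treatment, with 4 of its 6 libraries failed. Of the promoters of 9 epithelial markers, KRT5, ITGB4, KRT17, EGFR, CDH1, EPCAM, KRT14 and LAMB3 had a peak in 10 to 37 libraries and TP63 at its canonical start in 0, while those of 8 markers of blood, endothelial, liver, glial and muscle cells had a peak in 0 libraries.

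Pair promoters were open in nearly every library of good quality. Each of the 4 CTRL libraries had a peak at 933 of the 972 pairs, and 923 pairs had one in all 4 (95.0%), against 54.6% of the other promoters. In PBS, the numbers of pairs with a peak were 934, 848 and 858 after 24 h, and 919, 913 and 648 after 48 h. In EGF they were 893, 810, 932 and 933 after 24 h, and 919, 928, 931 and 917 after 48 h. HGF libraries lay in a similar range to those of EGF, with 930, 919 and 837 (24 h) and 926, 932 and 793 (48 h). OSM gave 931, 851 and 802 (24 h) and 911, 387 and 784 (48 h). IFNG with EGF gave 906, 721 and 831 (24 h) and 917, 929 and 217 (48 h). TGFB with EGF spread most, with 922, 205 and 169 (24 h) and 534, 89 and 852 (48 h). The low values came from libraries with few peaks, and the other promoters fell in the same libraries.

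On average, 81.8% ± 24.1 of pair promoters had a peak in a library (SD, n = 42 libraries), against 44.4% of other promoters. The difference was 37.5 ± 9.24 percentage points, and it was positive in 42 of 42 libraries. Peaks at pairs were wider. The median width in a library averaged 670 bp at pairs and 555 bp at the others, a difference of 115 ± 53.99 bp that was positive in 40 of 42 libraries. The fold enrichment at the summit, which is the local pileup over the background as the peak caller gave it, had a median of 8.57 at pairs and 7.68 at others (mean over libraries). On the log2 scale the medians differed by 0.15 ± 0.06, a 1.11-fold ratio, and pairs were higher in 40 of 42 libraries. Each of these differences had a permutation p of 1e-05 (signs flipped over libraries, two-sided, adjusted p = 1e-05 over 3 measures), the smallest that 100000 draws can give. This p measures the spread between libraries and not that between promoters.

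**Figure D1:**
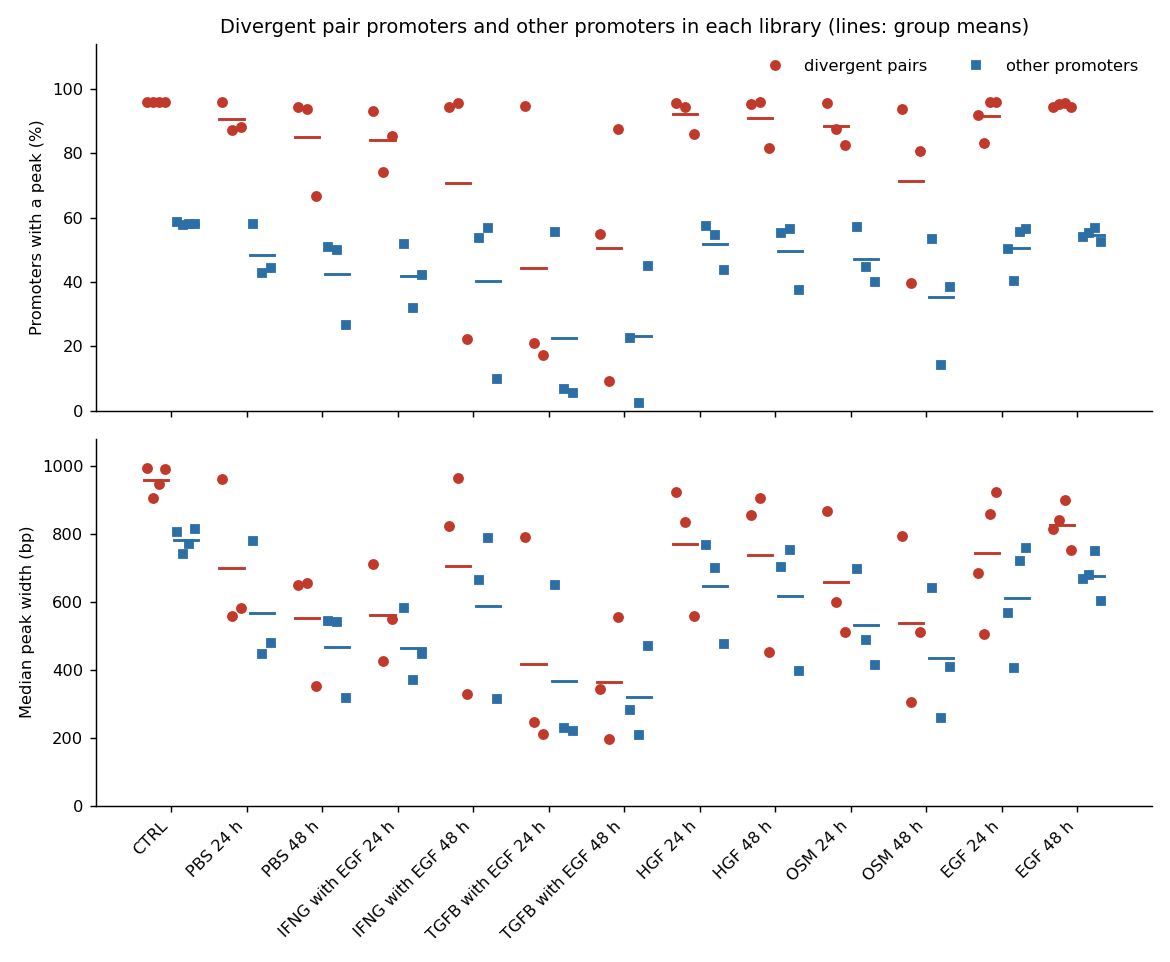
Percent of promoters with a peak (top) and median peak width in bp (bottom) in each of 42 libraries, for 972 divergent pairs (circles) and 18003 other promoters (squares), by group, with lines at the group means. Pairs lie above the other promoters in the top panel in all 42 libraries, and both fall together in libraries with few peaks.

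The gap in detection was smaller among CpG-rich promoters, and the gap in width nearly as large. Among CpG-rich promoters alone, 84.0% of pairs and 62.8% of others had a peak, the mean widths were 679 and 582 bp, and the fold ratio was 1.10. With the same 1000 bp window at each single start, 79.2% of the paired starts had a peak. Against the 15961 other promoters with no start of any annotated gene upstream on the opposite strand, of which 41.5% had a peak, the ratio of fold was 1.12. When each library was limited to its 4000 strongest peaks, 19.3% of pairs and 6.33% of others had a peak and the widths were 728 and 664 bp, but the fold ratio was 0.991, with pairs higher in 12 of 42 libraries. The higher fold enrichment of pairs was thus not seen among the strongest peaks, while the more frequent detection and the wider peaks were.

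Few pairs were closed. A peak was found in 0 libraries at 30 pairs (3.09%), against 36.03% of the other promoters, and in at least 30 libraries at 838 pairs (86.2%), against 41.3% of the others. A peak was present in all 42 libraries at 37 pairs (3.81%) and at 0.850% of the others, and in all 30 libraries that the study passed at 713 pairs (73.4%) and at 30.4% of the others. The 5 closed pairs with the closest starts were DYDC1-DYDC2 (26 bp apart), CSAG1-MAGEA12 (36 bp), DCST2-DCST1 (43 bp), FAM229A-TSSK3 (54 bp) and KCTD19-LRRC36 (74 bp). MAGEA12 is a cancer-testis antigen gene, DCST1 and DCST2 act in sperm-egg fusion and TSSK3 is a testis-specific kinase gene. CSAG1-MAGEA12 and DCST2-DCST1 had a low CpG content, at 0.335 and 0.207 of that expected, against a median of 0.791 over all pairs, whereas DYDC1-DYDC2 had 0.740. The rule's limit of 1000 bp marked no step in detection. Pairs with starts 901 to 1000 bp apart had a peak at either start in 83.3% of library values (29 pairs), and genes in the same arrangement 1001 to 1100 bp apart in 81.0% (13 pairs).

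**Figure D2:**
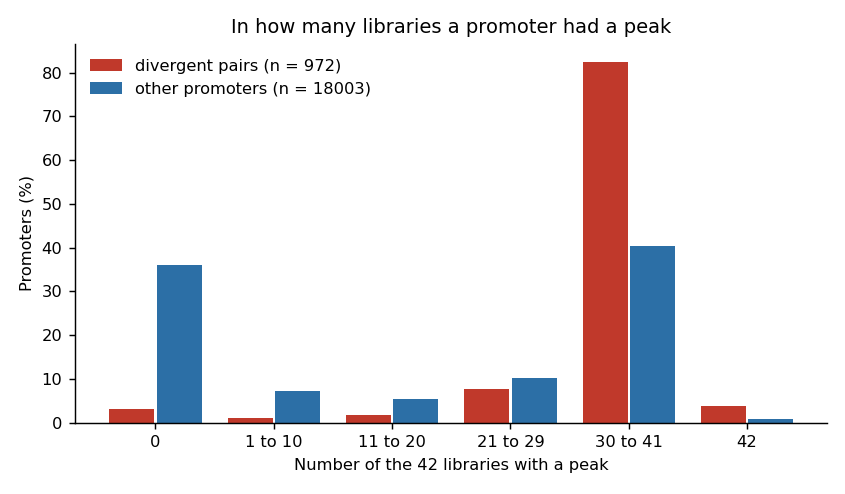
Percent of the 972 pair promoters and of the 18003 other promoters (vertical axis) by the number of the 42 libraries in which they had a peak (horizontal axis). Most pairs (82.4%) had a peak in 30 to 41 libraries, while 36.03% of other promoters had one in none.

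A single peak usually spanned a pair. Pooled over the 4 CTRL libraries, the peak covered both starts in 98.8% of detected pairs with starts at most 100 bp apart, in 96.3% at 101 to 300 bp, in 90.7% at 301 to 500 bp and in 65.2% at 501 to 1000 bp. Over all 42 libraries the means were 87.1% ± 16.9, 79.0% ± 25.2, 66.7% ± 28.97 and 39.7% ± 23.03 (SD). More than 1 separate peak interval was found in 1.203% ± 1.08, 1.56% ± 1.23, 3.36% ± 2.04 and 9.53% ± 3.83 of detected pairs in these classes. Median width rose with the distance, from 610 ± 236 bp at the closest pairs through 654 ± 235 bp and 702 ± 236 bp to 755 ± 273 bp, and pairs up to 300 bp apart differed from the rest by -81.7 ± 30.3 bp in width (higher in 0 of 42 libraries). They differed from the rest by -4.02 ± 2.52 percentage points in detection (higher in 0 of 42 libraries). By class, detection was 74.7%, 82.8%, 86.6% and 82.1% from the closest to the widest, so it was lowest at the closest pairs and did not rise throughout. The windows of closer pairs are shorter, and the part of the window in these differences was not tested. Pairs up to 300 bp apart had a median fold of 8.67 ± 2.34, against 8.41 ± 2.00 at longer distances.

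The summit sat near the midpoint of the starts. Over the 942 pairs with a peak, the median summit of a pair lay within 100 bp of the midpoint in 66.9% of pairs. At the 11516 other promoters with a peak it lay within 100 bp of the start in 55.1%, at a median of 53.5 bp upstream of it. For pairs the median position was -7.25 bp from the midpoint. The reference points differ, so these shares do not compare how tightly the summits were placed. Where the starts were more than 300 bp apart the summit lay between them in 84.2% ± 4.28 (301 to 500 bp) and 82.9% ± 4.30 (501 to 1000 bp) of detected pairs. At the widest class it was closer to a start (131 ± 17.1 bp from the nearer one) than to the midpoint (238 ± 29.2 bp). At starts at most 100 bp apart the summit fell between them in 34.99% ± 7.93, at 34.6 ± 10.4 bp from the nearer start.

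**Figure D3:**
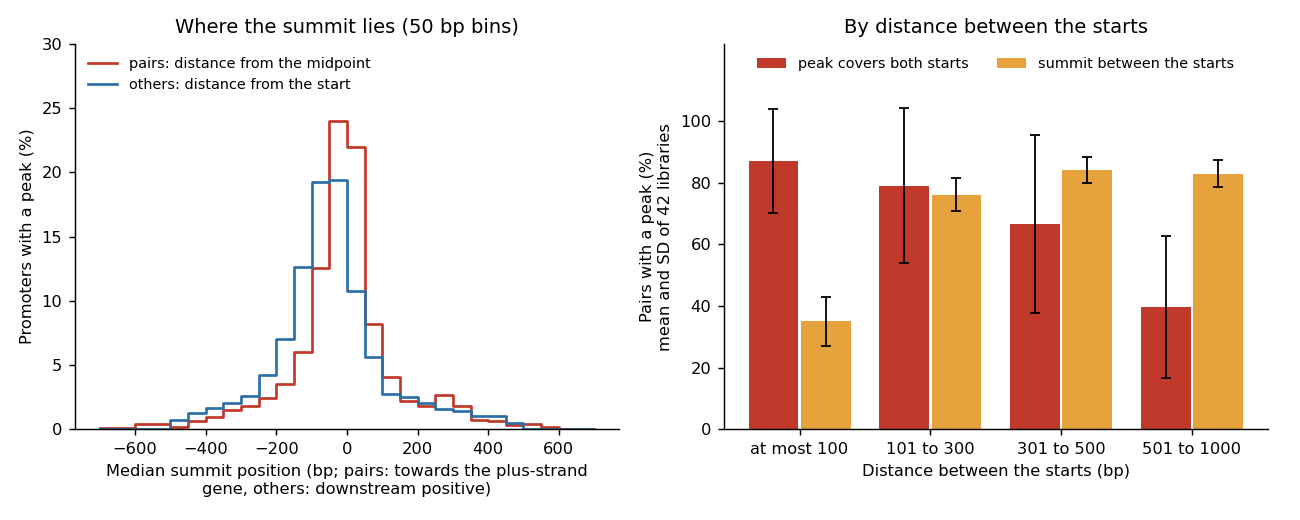
Left, percent of promoters (vertical axis) by the median position of the summit in 50 bp bins, from the midpoint of the starts for pairs and from the start for others. Right, percent of detected pairs whose peak covers both starts, or whose summit lies between the starts, by distance between the starts (mean and SD of 42 libraries). Coverage of both starts falls from 87.1% to 39.7% as the distance grows.

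Among the 838 pairs with a peak in at least 30 libraries, WBP11-C12orf60 had the highest mean enrichment, with a median fold of 17.4 over 40 libraries (range 4.37 to 20.9). WBP11 encodes a splicing factor. TMEM167A-XRCC4, with a gene of DNA end joining, had a median of 15.9 (5.75 to 21.9), and RPGRIP1L-FTO, with genes of a ciliary protein and an RNA demethylase, 16.2 (4.30 to 22.7) in 42 libraries. MZT1-BORA, with genes of a microtubule-nucleation protein and an Aurora kinase activator, had 15.3 (4.62 to 21.7), and CAB39L-SETDB2 had 14.6 (6.93 to 18.7), both in 42 libraries. The ranges overlap throughout, so the order among these 5 is not resolved. The widest peaks on average were at AIDA-BROX (median 2028 bp), RPL7-RDH10 (1713 bp), PCID2-CUL4A (1781 bp), OARD1-NFYA (1584 bp) and THAP4-ATG4B (1531 bp). In these the starts were 73, 969, 944, 618 and 535 bp apart.

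Textbook divergent pairs were open in most libraries, and 8 of the 9 sought met the rule. HSPD1-HSPE1, the genes of the mitochondrial chaperonin and its co-chaperonin, had a peak in 40 libraries with a median fold of 11.8 and starts 539 bp apart. NPAT-ATM, which pairs a histone gene activator with a DNA damage kinase, had one in 39 libraries with a fold of 11.4. PPAT-PAICS, both of purine synthesis, had one in 39 libraries, with a wide peak (median 1498 bp) and a fold of 7.17. PRKDC-MCM4, of DNA end joining and replication licensing, had one in 37 libraries with a fold of 8.74. COL4A1-COL4A2, which encode the chains of basement membrane collagen IV, had one in 31 libraries with a fold of 6.22, and SURF1-SURF2 in 30 with a fold of 6.06. The lowest of the 8 in detection was TAP1-PSMB9, with 24 libraries and a median width of 464 bp. It lies in the MHC region of chromosome 6, which the study left out of its own promoter analysis because alternate contigs of hg38 impair alignment there. The 12 pairs in that region had a peak in 39.7% of library values, and 0 of them in at least 30 libraries.

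The next question was whether the gap between pairs and other promoters differed by treatment. For each ligand the difference between pairs and others in a library was compared with its matched medium, which was PBS for EGF, HGF and OSM, and EGF for IFNG with EGF and TGFB with EGF. PBS was also compared with CTRL. The tests were exact permutation tests, two-sided and adjusted over 6 contrasts. Libraries were permuted within time, except in PBS against CTRL, where PBS libraries of both times were permuted together with those of CTRL. With EGF, the gap in detection was 40.8 ± 1.35 points (n = 8), against 42.2 ± 2.65 in PBS (n = 6), a difference of -1.48 points (exact permutation p = 0.209, adjusted p = 0.339). HGF (-1.59 points, exact permutation p = 0.325) and OSM (-3.47, exact permutation p = 0.270) did not pass either, nor did IFNG with EGF (-4.36, exact permutation p = 0.339).

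The gap was smaller in TGFB with EGF than in EGF in all 3 measures. In detection it was 24.5 ± 15.4 points (n = 6) against 40.8 ± 1.35 (n = 8), a difference of -16.3 points (exact permutation p = 0.0122, adjusted p = 0.0429). In width it was 47.5 ± 59.8 bp against 140 ± 21.7 bp, a difference of -93.0 bp (exact permutation p = 0.00327, adjusted p = 0.0196). In log2 fold it was 0.06 ± 0.08 against 0.17 ± 0.02, a difference of -0.12 (exact permutation p = 0.00408, adjusted p = 0.0245). In the libraries that the study passed, the differences were 0.530 points in detection, -32.4 bp in width and -0.03 in log2 fold. Too few TGFB with EGF libraries passed for this test to reach an adjusted p below 0.05 at any difference. That the 3 calls were not made there is therefore no result. The 4 failed TGFB with EGF libraries had 4217 to 22651 summits, and the 8 EGF libraries 44099 to 103106. Leaving out any of the 4 failed TGFB with EGF libraries, or EGF 24 h replicate A or B or EGF 48 h replicate A, B or D, brought the adjusted p for detection to 0.0514 to 0.0914. That for width was 0.0514 to 0.06 without EGF 24 h replicate A, C or D, and that for fold 0.0686 to 0.0771 without any of those 3 or TGFB with EGF 24 h replicate B or C. The differences stayed negative, at -20.6 to -11.1 points, -116 to -78.3 bp and -0.15 to -0.09 in log2 fold.

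PBS had a larger gap in detection than CTRL, by 4.41 points (42.2 ± 2.65, n = 6, against 37.8 ± 0.425, n = 4), with 6 of 6 PBS libraries above the CTRL mean (exact permutation p = 0.0143, adjusted p = 0.0429). The number of pairs with a peak was 648 to 934 in PBS and 933 in each CTRL library, while the other promoters with a peak fell from 10391 or more in CTRL to 4813 at the lowest in PBS. The adjusted p was 0.0476 without PBS 24 h replicate A and 0.0714 to 0.214 without any 1 of the other 9 libraries, so the call did not hold when any of those was left out. Widths differed by -67.1 bp (exact permutation p = 0.0381, adjusted p = 0.114) and log2 fold by 0.02 (exact permutation p = 0.343).

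The gaps in width and log2 fold rose with the number of peaks, while that in detection was lowest in the libraries with the fewest peaks but did not rise throughout. Over the 42 libraries, Pearson's r with the log10 number of summits was 0.766 for detection, 0.960 for width and 0.863 for log2 fold, each with a permutation p of 1e-05 (adjusted p = 1e-05 over 3 relations), the smallest possible. Spearman's rho was -0.17 for detection (permutation p = 0.277, adjusted p = 0.277), 0.946 for width and 0.661 for fold (permutation p = 1e-05 each, adjusted p = 1.5e-05). The gap in detection was 6.70 points in the library with the fewest summits, 44.3 at its highest in PBS 24 h replicate B with 45027 summits, and 37.3 to 38.3 in the CTRL libraries, which had 109226 to 113805. With the 2 libraries most distant from the median peak number removed, r was 0.613, 0.947 and 0.821, and within groups it was 0.788, 0.963 and 0.907. When each library was limited to its 4000 strongest peaks, TGFB with EGF still differed from EGF in detection (-6.45 points, exact permutation p = 0.000816, adjusted p = 0.0049) and width (-35.3 bp, exact permutation p = 0.00571, adjusted p = 0.0343), and by 0.03 in log2 fold (exact permutation p = 0.0971, adjusted p = 0.291). EGF, HGF and OSM were then also below PBS in detection, by -5.00, -4.17 and -6.47 points (exact permutation, adjusted p = 0.0049, 0.015 and 0.01). Library quality and TGFB treatment cannot be told apart in the 4 failed libraries.

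**Figure D4:**
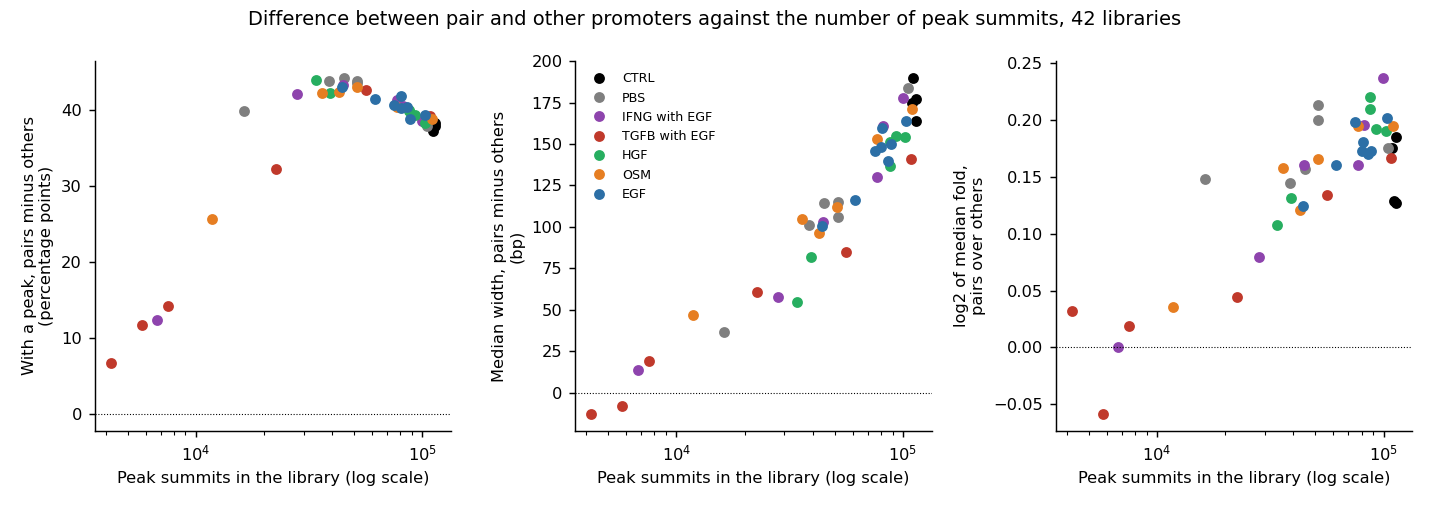
Difference between pair and other promoters in percent with a peak (left, percentage points), median width (middle, bp) and log2 median fold (right), against the number of peak summits in the library (log axis), with 1 point for each of the 42 libraries, coloured by treatment. The 4 libraries with the fewest summits, 3 of TGFB with EGF and 1 of IFNG with EGF, lie lowest in all 3 panels.

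Single pair promoters were then tested for presence of a peak with limma on detection adjusted for the number of peaks, in 1 fit over 11936 promoters, 902 of them pairs. A call needed an adjusted p below 0.01 together with an absolute difference of 0.5 or more. Of the 70 pairs not tested, 37 had a peak in every library, 30 in none and 3 in 1 only. For EGF against PBS limma called 0 pairs, with 28 pairs at an unadjusted p below 0.05 (0% of all promoters called). For HGF against PBS it called 0, with 35 at an unadjusted p below 0.05 (0% of all called). For OSM against PBS it called 0 pairs, with 70 at an unadjusted p below 0.05 (0.00838% of all called). In IFNG with EGF against EGF it called 0 pairs, with 20 at an unadjusted p below 0.05 (0.218% of all called, that is 26 promoters, none of them of a pair). In TGFB with EGF against EGF it called 0 pairs, with 34 at an unadjusted p below 0.05 (0% of all called). In PBS against CTRL it called 0 pairs, with 7 at an unadjusted p below 0.05 (0.067% of all called). With no adjustment for the number of peaks, 279 pairs were called in TGFB with EGF against EGF (30.5% of all promoters, 30.9% of pairs), and 0 in the adjusted fit.

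Since most pairs had a peak almost everywhere, the size of the peak was tested as well, as log2 fold enrichment, with libraries centred on the median of the 190 promoters that had a peak in every library. The fit held 7969 promoters, of which 817 were pairs, and a library without a peak was dropped from the fit of that promoter. A pair was called at an adjusted p below 0.05. In EGF against PBS 6 pairs were called (1.48% of all promoters), 1 higher (0.326% of all) and 5 lower (1.15% of all). In HGF against PBS 0 pairs were called by limma, with 77 at an unadjusted p below 0.05 (0.0125% of all called). In OSM against PBS 2 pairs were called (0.289% of all), both lower (0.264% of all). In IFNG with EGF against EGF 0 pairs were called by limma, with 25 at an unadjusted p below 0.05 (0.0502% of all called), and in TGFB with EGF against EGF 0, with 78 at an unadjusted p below 0.05 (0% of all called). In PBS against CTRL 5 pairs were called (1.41% of all), 3 higher (0.364% of all) and 2 lower (1.04% of all). The share of pairs called was 0.734% in EGF against PBS, 0.245% in OSM against PBS and 0.612% in PBS against CTRL, below the share of all promoters in each. These shares rest on only 6, 2 and 5 pairs, that in OSM was near the share of all promoters, and no shortfall is read from them. The median difference over all promoters tested was -0.03 in EGF, -0.12 in OSM and -0.11 in PBS against CTRL on the log2 scale. With cyclic loess scaling these medians were within 0.01 of 0, a shift of 0.13 in OSM and of 0.11 in PBS against CTRL. The counts in PBS against CTRL became 30 pairs called (3.67% of pairs and 5.28% of all promoters). Of these 25 were higher (3.06% of pairs and 2.01% of all) and 5 lower (0.612% of pairs and 3.28% of all). In the libraries that the study passed they became 37 pairs called (4.39% of pairs and 7.37% of all promoters). Of these 29 were higher (3.44% of pairs and 3.06% of all) and 8 lower (0.95% of pairs and 4.3% of all). For EGF against PBS they became 23 there (2.73% of pairs and 4.88% of all). Of these 6 were higher (0.713% of pairs and 2.52% of all) and 17 lower (2.02% of pairs and 2.36% of all). So the number of pairs that differed between PBS and CTRL, and its split by direction, depended on the scaling and the libraries. All 13 calls kept their direction in each of the 585 fits under an alternative, but 0 of them stayed called in every run without 1 library. The calls were picked in these same libraries and most of these fits left out only 1, so the kept direction says little about stability. The contrasts of EGF, HGF, OSM and CTRL share the PBS libraries.

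IRGQ-ZNF576, which pairs a gene of an immunity-related GTPase family member with a zinc finger gene, had the lowest p. Its centred log2 fold was 2.54 at the lowest, 2.70 at the median and 3.39 at the highest in 6 PBS libraries, 1.82, 2.05 and 2.68 in 7 EGF libraries with a peak, and 2.06, 2.14 and 2.34 in 5 OSM libraries with a peak. OSM lay wholly below PBS, and EGF overlapped it. It fell by 0.72 ± 0.15 (SE) with EGF (limma, adjusted p = 0.0161) and by 0.70 ± 0.16 with OSM (adjusted p = 0.0454). Without PBS 48 h replicate A the adjusted p with EGF was 0.0668, and without OSM 48 h replicate C that with OSM was 0.176.

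NUP37-PARPBP was the pair that rose with EGF. NUP37 encodes a nuclear pore protein and PARPBP an inhibitor of homologous recombination. Its centred log2 fold ran from 2.94 through 3.21 to 3.29 in PBS and from 3.14 through 3.61 to 3.75 in 8 EGF libraries, so that the groups overlapped. It rose by 0.41 ± 0.11 (limma, adjusted p = 0.0377), and without PBS 24 h replicate B the adjusted p was 0.102. The CTRL libraries had 3.38 to 3.71, like those of EGF. The 4 other pairs lower with EGF were ENSG00000273345-UBE2B, COQ8B-ITPKC, TMEM276-KIFC2 and AIDA-BROX. They fell by 0.62 ± 0.14, 0.63 ± 0.15, 0.51 ± 0.12 and 0.45 ± 0.11, with adjusted p from 0.0216 to 0.0377 in limma. With cyclic loess scaling COQ8B-ITPKC fell by 0.32 (adjusted p = 0.119), TMEM276-KIFC2 by 0.13 (adjusted p = 0.648) and AIDA-BROX by 0.36 (adjusted p = 0.0812). Left-out libraries raised the adjusted p to at most 0.0825 for ENSG00000273345-UBE2B (without PBS 48 h replicate B), 0.0777 for COQ8B-ITPKC (without PBS 24 h replicate C), and 0.104 for TMEM276-KIFC2 and 0.121 for AIDA-BROX (both without PBS 48 h replicate A). UBE2B encodes a ubiquitin-conjugating enzyme, COQ8B acts in coenzyme Q synthesis, ITPKC is an inositol trisphosphate kinase and KIFC2 a kinesin.

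SLC25A11-RNF167, with the genes of the mitochondrial oxoglutarate carrier and a ubiquitin ligase, was lower with OSM than with PBS. Its centred log2 fold was 2.99, 3.44 and 3.60 (lowest, median and highest) in 6 PBS libraries and 2.19, 2.71 and 3.04 in 6 OSM libraries, which overlap slightly. It fell by 0.66 ± 0.15 (limma, adjusted p = 0.0400). The 2 OSM calls differed in how they held in the libraries that the study passed: SLC25A11-RNF167 fell by 0.35 there (adjusted p = 0.323), and IRGQ-ZNF576 by 0.68 (adjusted p = 0.0393). Without PBS 48 h replicate A the adjusted p of SLC25A11-RNF167 was 0.158.

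COQ8B-ITPKC and ENSG00000273345-UBE2B, which were lower with EGF than with PBS, were higher with PBS than in CTRL, and both contrasts use the same PBS libraries. For COQ8B-ITPKC the 4 CTRL libraries had 1.79, 1.75, 1.67 and 1.80, and the 6 PBS libraries 1.95 to 2.72 with a median of 2.47. The groups did not overlap, and the increase was 0.65 ± 0.18 (limma, adjusted p = 0.0484), or 0.35 with cyclic loess scaling (adjusted p = 0.124). For ENSG00000273345-UBE2B the CTRL libraries had 2.02, 2.55, 2.07 and 2.31 and the PBS libraries 2.20 to 3.73, with overlap, and an increase of 0.63 ± 0.17 (adjusted p = 0.0484). FAM219A-DNAI1, with a gene of ciliary dynein, had 2.21, 2.62, 2.65 and 2.79 in CTRL and 2.83 to 3.60 in PBS. These did not overlap, and the increase was 0.65 ± 0.15 (adjusted p = 0.0252).

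The pairs lower with PBS than in CTRL were CCDC38-AMDHD1 and ENSG00000241489-EOLA1. CCDC38-AMDHD1, whose AMDHD1 acts in histidine breakdown, had 2.93, 3.31, 3.20 and 3.29 in CTRL and 2.08 to 2.92 in PBS, which fell just below. The decrease was 0.67 ± 0.16 (limma, adjusted p = 0.0281). ENSG00000241489-EOLA1 had 3.11, 3.25, 2.92 and 3.25 in CTRL and 1.98 to 3.02 in PBS, with overlap, and fell by 0.67 ± 0.17 (adjusted p = 0.0355). Each of the 5 calls was lost without some single library: the highest adjusted p was 0.128 for FAM219A-DNAI1 without CTRL replicate A, 0.105 for CCDC38-AMDHD1 and 0.120 for ENSG00000241489-EOLA1 without CTRL replicate D, and 0.1502 for COQ8B-ITPKC and 0.164 for ENSG00000273345-UBE2B without CTRL replicate C.

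**Figure D5:**
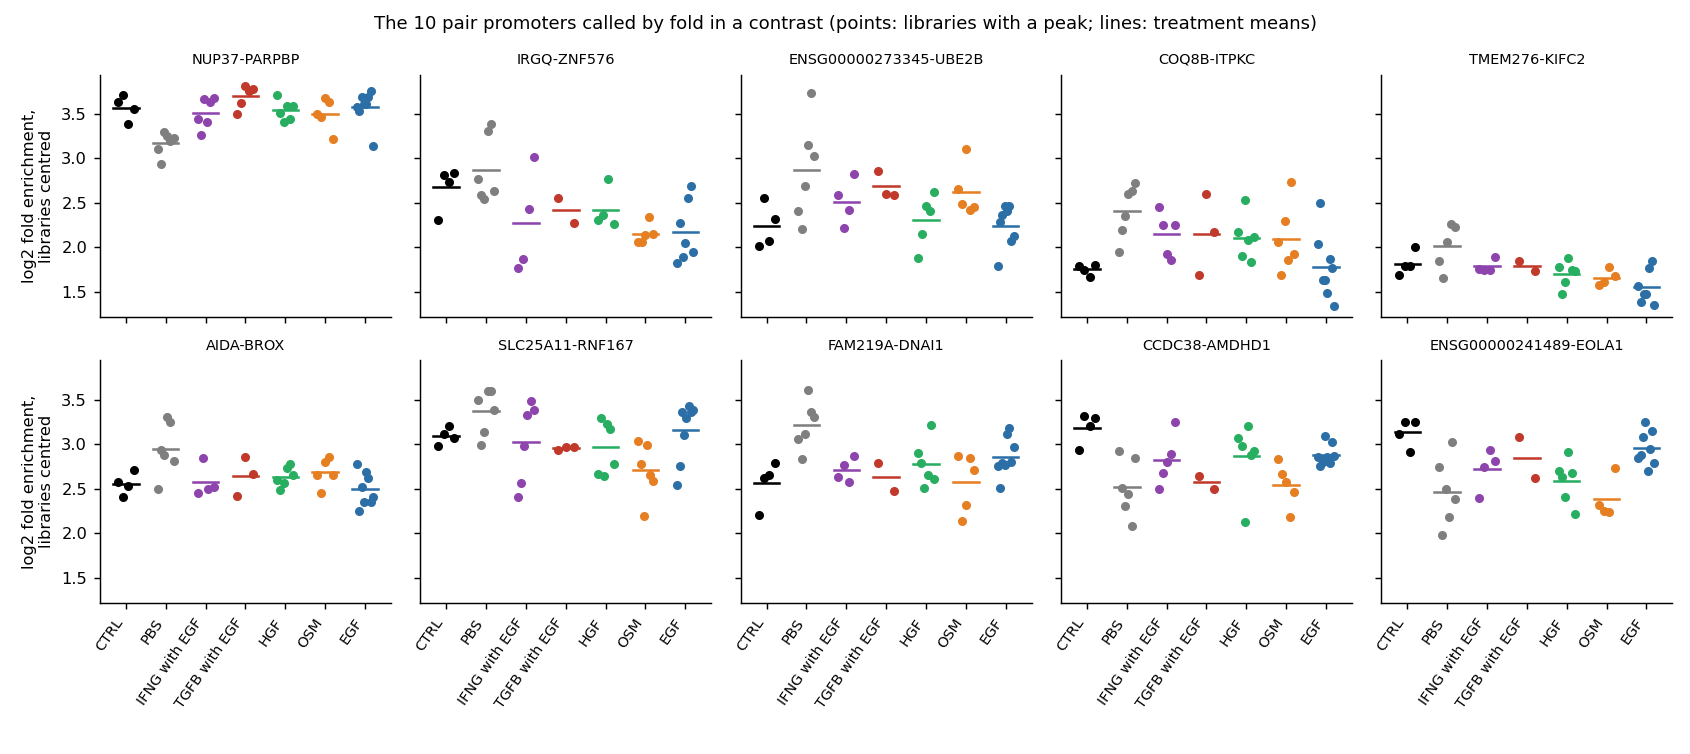
Centred log2 fold enrichment (vertical axis) of the 10 pair promoters called in a contrast, with 1 point per library with a peak, by treatment with both times together, and lines at treatment means. NUP37-PARPBP is lowest in PBS, and COQ8B-ITPKC, ENSG00000273345-UBE2B and AIDA-BROX are highest in PBS.

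Pairs with known targets of the ligands were then examined. For interferon and antigen presentation 5 pairs were found (TAP1-PSMB9, PARP9-DTX3L, PATL2-B2M and PSME2 with RNF31 and with ENSG00000259529, the last 2 sharing a peak), and 0 of them was called in any contrast. PARP9-DTX3L, whose genes form an interferon-induced ubiquitin ligase complex, had in IFNG with EGF a fold of 13.2, 6.58 and 10.3 (24 h) and of 11.8 and 13.1 (48 h), with no peak in the remaining library, and 5.43 to 12.48 with a median of 9.74 in 8 EGF libraries. The groups overlapped and the difference was 0.34 ± 0.16 in log2 (limma, unadjusted p = 0.0380, adjusted p = 0.820). TAP1-PSMB9 had a peak in 4 of 6 IFNG with EGF libraries, at a fold of 4.54, 4.28, 6.68 and 12.1, and in 6 of 8 EGF libraries, at 6.38 to 9.60, all read within the MHC region described above. Its difference in adjusted detection was 0.232 ± 0.121 (limma, adjusted p = 0.671), while the raw share with a peak was lower with IFNG. The sign thus turned with the adjustment for the number of peaks, and no direction is read from it. With 24 libraries TAP1-PSMB9 was below the minimum for the test on fold. PATL2-B2M, with the gene of the MHC class I light chain, differed by -0.51 ± 0.16 in log2 in IFNG with EGF against EGF (adjusted p = 0.395). Over the 4 pairs tested the median difference with IFNG was -0.02, as compared with -0.03 over all promoters tested.

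Basement membrane genes gave 2 pairs. COL4A1-COL4A2 had a peak in 2 TGFB with EGF libraries, at a fold of 7.09 and 8.36, and in 8 EGF libraries at 3.495 to 9.76, which overlap. The difference was 0.48 ± 0.21 in log2 (limma, unadjusted p = 0.0297, adjusted p = 0.665). In PBS against CTRL it was -0.69 ± 0.21 (adjusted p = 0.0848). COL4A4-COL4A3 had a peak in 23 libraries and was not tested on fold. Growth factor early response genes gave 1 pair, STX10-IER2, with a peak in 25 libraries and a median fold of 4.17. TGF-beta response and OSM and STAT3 response genes gave 0 pairs, and their lists matched 27 and 26 of the other promoters. As 1895 of 19970 protein-coding genes were in pairs, lists of this length would give few, so the 0 is not read as a result.

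Housekeeping lists held most of the listed pairs. DNA replication and repair genes were in 37 pairs, all of which had a peak in at least 30 libraries, with a peak in 88.5% of library values, as compared with 81.8% for all pairs. Other promoters of this list had a peak in 79.1%, as compared with 44.4% over all other promoters. For replication-dependent histone genes the values were 83.3% at pairs and 60.5% at other promoters. None of the 35 tested on fold was called, and their median difference was -0.05 with EGF and -0.15 with OSM, against -0.03 and -0.12 over all promoters. The lowest p was that of RECQL4-LRRC14 with HGF (-0.47 ± 0.12, adjusted p = 0.165). Replication-dependent histone genes were in 13 pairs, of which 12 had a peak in at least 30 libraries and H2AC1-H2BC1 had none, with a median distance of 240 bp and a median fold of 7.88. Of the 11 tested 0 was called. H2BC21-H2AC20 had the lowest p, in TGFB with EGF against EGF (0.52 ± 0.15, limma adjusted p = 0.382).

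Mitochondrial ribosome genes were in 27 pairs, with a peak in 82.0% of library values, and 0 of the 23 tested was called. Cytosolic ribosome genes were in 15 pairs, of which 10 were tested and 0 called. RPL7-RDH10, which pairs a ribosomal protein gene with a retinol dehydrogenase gene, differed by 0.52 ± 0.13 in TGFB with EGF against EGF (limma, unadjusted p = 0.000156, adjusted p = 0.154). Genes of respiratory complex I and its assembly were in 17 pairs, 15 of them tested, and those of mitochondrial chaperones and import in 17, 16 of them tested, with 0 called in both. HARS1-HARS2, in which the cytosolic and the mitochondrial histidyl-tRNA synthetase genes lie head to head, was among 7 pairs with tRNA synthetase genes, all tested and 0 called. It had a peak in 41 libraries and differed by -0.39 ± 0.12 in TGFB with EGF against EGF (adjusted p = 0.428). Zinc finger genes were in 33 pairs, and of the 29 tested on fold only IRGQ-ZNF576 was called, in the 2 contrasts given. These lists were read beside the shares called over all promoters, and nothing particular to any list is drawn from them.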

How the data were processed

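Processed ATAC-seq peak files of 42 MCF10A libraries were used. Per the submitters' notes and methods, the authors trimmed reads with Trimmomatic 0.36.5, aligned them to hg38 with Bowtie2 2.3.4.1, removed duplicates with Picard and called peaks per library with MACS2 2.1.1.20160309.5 at a q of 0.01. The deposited fold column is a ratio of pileup to local background at the summit. The deposited −log10 columns are those of p and q, and the deposited score is a rescaled −log10 q, which was not used. Replicates were not pooled. The files hold no reads, so depth is unknown, and widths and detection depend on it.

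Each promoter was represented by its summit with the highest fold. Groups came from the labels. Analyses used Python 3.11.15 with scipy 1.17.1, and limma 3.58.1 in R 4.3.3, with 29 residual degrees of freedom and Benjamini-Hochberg adjustment over all promoters. The members, gene lists, motifs and tests were chosen with earlier results of these data known. Named pairs were the called ones (up to 5 per contrast, fit and direction), the 5 highest and 5 widest, textbook pairs, up to 4 per list by lowest p, and 5 with no peak. Kinase genes whose symbols begin with RPS6K were left out of the ribosome list. Of the markers fixed for other cell types, 8 were measured. Canonical starts are those of GENCODE 44, on the same build. In simulated data, complete switches of detection were planted, with a peak in every library of the treatment and none in its medium, or the reverse. Partial changes in detection were not simulated. In EGF against PBS limma recovered 98.5% of 200 such switches (11898 promoters), and in fold 28.5% of changes of 0.5 and 99.0% of changes of 1 on the log2 scale (7969 promoters). In IFNG with EGF against EGF it recovered 90% (11899 promoters), and 31% and 98.5% (7969 promoters), with 4 to 19 calls among unchanged promoters where detection or a change of 1 was planted. In fold over pair promoters, same-letter libraries deviated together at a correlation above 0.1 in 14 of 30 pairs of libraries (-0.22 to 0.36). For the gaps, this correlation ran from -0.580 (log2 fold, PBS against CTRL) to 0.891 (width, HGF against PBS), over 6 pairs of libraries each. These values do not settle whether the letters pair libraries. The sources used here do not say so, and the replicate block was therefore run only as an alternative. Alternatives covered windows, CpG content, peak number, peak threshold, lane, filters, scaling, failed libraries and each library left out. Some items are not reported here.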

Additional observations from a re-analysis of the deposited data

How the results depend on the processing

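Depth was unknown, and 1 alternative equalised the number of peaks instead. The gaps between pairs and other promoters in detection and width kept their direction and stayed past the test's threshold under all alternatives run. That in log2 fold did so except with the 4000 strongest peaks (-0.0126, permutation p = 0.0148). Leaving out each library in turn gave 37.3 to 38.2 points, 113 to 118 bp and 0.143 to 0.151 in log2 fold.

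By treatment, several differences depended on the setting, and the cause was not tested. Among CpG-rich promoters the difference in detection was 0.317 with IFNG, -5.22 with TGFB (no longer called) and 7.32 in PBS against CTRL (no longer called), and that in log2 fold with EGF was 0.00474. With the 4000 strongest peaks detection differed by -5.00 with EGF, -4.17 with HGF and -6.47 with OSM, all 3 now called, the width by -2.5 bp with HGF, and the log2 fold by -0.0112 with HGF, 0.00467 with OSM, 0.00816 with IFNG and 0.0315 with TGFB. In the libraries that passed the study's threshold detection differed by 0.539 with IFNG, 0.530 with TGFB and 4.87 in PBS against CTRL (no longer called), the width by -32.4 bp with TGFB (no longer called), and the log2 fold by 0.00458 with OSM, 0.00923 with IFNG and -0.0291 with TGFB (no longer called). For TGFB too few libraries passed for the test to reach its threshold, so its lost calls are not read as weaker effects. With lane effects subtracted the width differed by -0.122 bp with OSM and the log2 fold by -0.00214 with HGF. With a replicate block the 4 called differences were no longer called. They were -16.3 points, -87.8 bp and -0.111 in log2 fold for TGFB and 4.44 points in PBS against CTRL (sign flips over same-letter differences, adjusted p = 0.375 each). With so few same-letter differences, the unadjusted p of 0.25 in PBS against CTRL was the lowest that this test could give. TGFB had little room to pass after adjustment. By fold, 1 and 2 pairs were called with the block in OSM against PBS and PBS against CTRL. The sources used here do not say that a letter marks a shared culture or day for these libraries, so a call lost under the block is not read as a weaker effect.

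Leaving out each library in turn gave these ranges. In detection: 3.997 to 5.27 (PBS against CTRL), -2.50 to -0.912 (EGF), -2.61 to -1.02 (HGF), -5.02 to -0.853 (OSM), -6.88 to 0.190 (IFNG) and -20.6 to -11.1 (TGFB). In width (bp): -81.9 to -52.5, 18.75 to 43.7, 0.667 to 29.4, -8.17 to 18.3, -48.25 to -7.25 and -116 to -78.3 in the same order. In log2 fold: 0.00988 to 0.0293, -0.0101 to 0.00630, -0.00773 to 0.0178, -0.0444 to -0.00467, -0.0569 to 0.00233 and -0.147 to -0.0911. Without PBS 24 h replicate A, EGF against PBS was called in detection (-2.50, adjusted p = 0.0495) and width (43.7 bp, adjusted p = 0.0267), and PBS against CTRL in width (-81.9 bp, adjusted p = 0.0238).

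Pairs called by fold numbered 3 (EGF) and 1 (PBS against CTRL) with lane as a term. In the passed libraries they numbered 23 (EGF, 2.73% of pairs and 4.88% of all promoters), 4 (HGF), 1 (OSM) and 37 (PBS against CTRL, 4.39% of pairs and 7.37% of all). With cyclic loess they numbered 5 (OSM), 1 (IFNG) and 30 (PBS against CTRL, 3.67% of pairs and 5.28% of all). With a peak required in at least 36 libraries they numbered 3 (EGF), 1 (OSM) and 1 (PBS against CTRL). Without each library in turn they numbered 0 to 9 (EGF), 0 to 22 (OSM; 22 without PBS 48 h replicate C), 0 to 19 (TGFB; 19 without TGFB 24 h replicate A and 6 without TGFB 48 h replicate C) and 0 to 21 (PBS against CTRL; 21 without PBS 24 h replicate A), and by detection 0 to 1 (EGF), 0 to 1 (HGF) and 0 to 3 (OSM). Raw detection called 279 pairs with TGFB (30.9% of pairs and 30.5% of all promoters). For the other settings, the replicate block among them, the share over all promoters was not computed. Those counts are therefore not read as a result about pairs.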
